A study of Mus musculus with 19 samples.

Results

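Epidermal growth factor (EGF) family ligands and the ErbB receptors that bind them were followed by their mRNA in whole mouse kidney, in healthy animals and after injury. The set held 10 genes of the 55536 in the count table and was picked by gene symbol. Of these, 6 encode ligands (Egf, Hbegf, Areg, Ereg, Tgfa and Btc) and 4 encode receptors (Egfr, Erbb2, Erbb3 and Erbb4). All 10 were found and all 10 had enough reads to enter the statistical model, although Areg and Ereg did so only through the injured groups.

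The study sequenced RNA from 19 kidneys. By the series design, 7 came from mice with UUO given vehicle, 8 from mice with UUO given zalfermin, and 4 from healthy mice given vehicle. UUO is the usual short form of unilateral ureteral obstruction, in which surgery blocks urine outflow and the kidney develops tubular damage and fibrosis. By the series title, zalfermin is a long-acting FGF21 analogue; FGF21 is a hormone. On the single samples, however, the obstructed kidneys carry the condition MASH, the healthy kidneys are called untreated, and the drug appears as a code, which was taken as zalfermin. Strain, sex, age, dose, times and whether each library is a separate animal are not stated in the sources used here; a p-value therefore measures the spread between libraries. The groups are called healthy, vehicle and zalfermin below.

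Libraries held between 12209122 and 14844103 counts. Levels are CPM, counts scaled to library totals adjusted by the trimmed mean of M-values (TMM), and 16026 genes were tested. A gene was called when its adjusted p in edgeR's quasi-likelihood test was under 0.05. The first principal component (66.4% of the variance) set healthy libraries apart from obstructed ones. Mitochondrial transcripts took 8.77% to 10.2% of counts in healthy libraries, and 2.95% to 4.25% in zalfermin libraries. Vehicle replicate 6 stood apart on the second component (8.41% of the variance), with 1.10% mitochondrial counts against 3.09% to 4.21% in the other vehicle libraries. The part of these differences in the results below was not tested, and results that turn on replicate 6 are given with and without it. Transcripts of kidney cells were present in every group: the summed level of 8 proximal tubule markers ranged from 12799 to 16365 CPM over healthy, from 2384 to 5063 over vehicle and from 2583 to 5105 over zalfermin libraries.

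The ligands of this family are made as membrane precursors, and proteases of the ADAM family cut most of them loose. Egf, Tgfa and Areg products act through the EGF receptor, those of Hbegf, Btc and Ereg through the EGF receptor and ErbB4, and neuregulins through ErbB3 and ErbB4. ErbB2 has no known ligand of its own and pairs with the other receptors, while ErbB3 has little kinase activity and signals through its partners. In the kidney, EGF precursor is a product of the thick ascending limb and distal convoluted tubule, and EGF promotes magnesium uptake through the channel TRPM6, whereas heparin-binding EGF (Hbegf) and amphiregulin (Areg) are known as ligands that injured epithelium makes.

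Areg, Ereg and Btc lie in a row on chromosome 5 in the order Epgn, Ereg, Areg and Btc, with Areg at chr5:91139599-91148432 on the plus strand of GRCm38. Gaps of 39.4, 46.0 and 209 kb separate the 4 genes. Ereg lies at chr5:91074622-91093646 on the plus strand and Btc at chr5:91357261-91402994 on the minus strand. Egf lies alone at chr3:129677565-129755316 on the minus strand. Tgfa is on chromosome 6 (86195223 to 86275719, plus strand), Egfr and Erbb2 on chromosome 11 (16752203 to 16918158 and 98412470 to 98437716, plus strand), Erbb3 on chromosome 10 (128567523 to 128589652, minus strand) and Erbb4 on chromosome 1 (68032186 to 69108059, minus strand).

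The promoters of Egf and Areg are shown because these genes carry the contrast between the ligand lost after obstruction and a ligand found only in reads of obstructed kidneys. Each is the 250 bases before the transcription start in RefSeq on GRCm38.p6, read 5′ to 3′ along the gene's strand. Capitals mark matches to the motifs searched on both strands. The windows are chr3:129755323-129755572 (minus strand) for Egf and chr5:91139349-91139598 (plus strand) for Areg.
Egf: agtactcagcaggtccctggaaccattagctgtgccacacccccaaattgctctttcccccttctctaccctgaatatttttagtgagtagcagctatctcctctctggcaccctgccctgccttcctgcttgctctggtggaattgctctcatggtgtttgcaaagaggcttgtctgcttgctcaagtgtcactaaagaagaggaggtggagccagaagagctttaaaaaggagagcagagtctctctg
Areg: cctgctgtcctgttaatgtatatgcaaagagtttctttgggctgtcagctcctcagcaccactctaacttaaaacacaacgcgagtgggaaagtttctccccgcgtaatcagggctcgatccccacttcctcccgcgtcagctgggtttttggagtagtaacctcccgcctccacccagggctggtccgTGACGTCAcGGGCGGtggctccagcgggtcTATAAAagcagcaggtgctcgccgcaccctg
The Areg window held a cyclic AMP response element (CRE, TGACGTCA) at 54 to 61 bases before the start, a GC box (GGGCGG) at 47 to 52 bases and a TATA box (TATAAA) at 26 to 31 bases. The CRE letters occur in 1.55% of the 32851 RefSeq promoter windows of this length, the TATA box letters in 12.4% and the GC box letters in 32.7%. None of the motifs searched was found in the Egf window; the search also took AP-1 (TGANTCA, in 6.75% of windows), TEAD (GGAATG, in 12.6%) and HNF1 (in 0.00913%). The Egf window had 0 CpG dinucleotides and 50.4% GC, and the Areg window had 15 CpG and 57.2% GC, against medians of 6 and 52.4% over all windows. A second RefSeq entry of Egf, which begins within the gene (window chr3:129725087-129725336), had 15 CpG and 52% GC and no motif match. RefSeq entries were at hand for 7 of the 10 genes. Of the other windows, those of Tgfa and Egfr held GC box letters, that of Erbb2 held TEAD letters, and those of Btc and Erbb4 held none of the motifs. A match of letters is a description and not a binding site.

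Obstruction separated the ligands: Egf and Btc fell, Hbegf, Areg, Ereg and Tgfa rose, and of the receptors Erbb3 alone passed the test, falling. In vehicle against healthy libraries 7 of the 10 genes were called, 4 higher and 3 lower, in a comparison in which 64.8% of all tested genes were called (36.2% higher and 28.6% lower). The share of members is near that background, so the count says little of the family as such. Areg and Ereg entered the model only through their reads in obstructed kidneys and had to differ, so their calls are no support; of the other 8 members 2 were called higher and 3 lower. The 6 ligands had a median log2 change of 0.79, but this counts Areg and Ereg and is therefore no support for a rise of the ligands. The other ligands changed by -4.41 (Egf), -0.62 (Btc), 0.34 (Tgfa) and 1.24 (Hbegf). The 4 receptors had a median of -0.05, against 0.09 over all tested genes.

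Egf was by far the most abundant member in healthy kidney, per kilobase as well, with 2390, 2222, 2386 and 2618 CPM in the 4 libraries. The 7 vehicle libraries ran from 33.2 through a median of 65.9 to 273 CPM. No vehicle library came near a healthy one. The log2 change was -4.41 (SE 0.577), a ratio of 0.0469 to healthy, with an adjusted p of 5.90e-07 in edgeR's quasi-likelihood test. In tissue RNA, fewer cells of a type and less RNA per cell cannot be told apart. The sources used here do not state the counting strand; the antisense genes that overlap Egf exons, Gm42697 and 6330410L21Rik, had 13 and 162 reads over all libraries against 138532 for Egf.

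Egf also varied more between obstructed libraries than nearly every other gene. Its coefficient of variation was 6.77% over healthy libraries, 85.4% over vehicle libraries and 77.4% over zalfermin libraries. Among genes of at least 5 CPM the median was 15.7% in vehicle and 9.79% in zalfermin libraries, and 99.9% of those genes varied less than Egf in each of these groups. The highest vehicle library (replicate 1) held 8.20 times the Egf of the lowest (replicate 7), and the highest zalfermin library (replicate 8, 463 CPM) 9.10 times that of the lowest (replicate 7, 50.9 CPM).

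**Figure D1:**
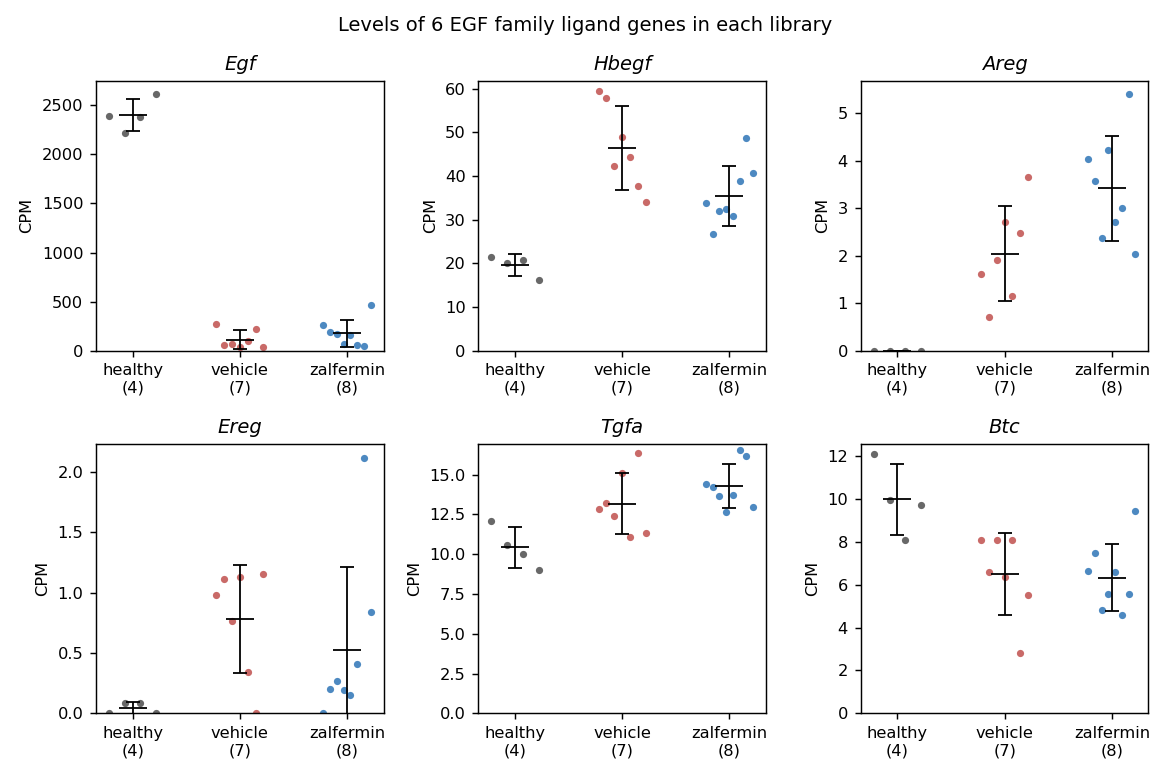
Level of each EGF family ligand gene in CPM (vertical axes, linear and starting at 0) in 4 healthy, 7 vehicle and 8 zalfermin libraries; points are libraries, and the bars give the mean and SD. Egf sits between 2222 and 2618 CPM in healthy libraries and at no more than 463 CPM after obstruction, while Areg is at 0 in all healthy libraries.

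Heparin-binding EGF was the ligand with the highest level per kilobase among those that rose. Hbegf stood at 21.5, 20.2, 20.8 and 16.1 CPM in healthy libraries and from 34.0 through a median of 44.4 to 59.6 CPM in vehicle libraries. The groups did not overlap, and Hbegf rose by 1.24 on the log2 scale (SE 0.166, edgeR adjusted p = 8.63e-07). The mean went from 19.7 ± 2.43 CPM (SD, n = 4) to 46.4 ± 9.69 (n = 7), while that of Egf went from 2404 ± 163 to 113 ± 96.3.

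Amphiregulin had no read in any healthy library and reads in every obstructed one. The 4 healthy libraries together allow a level of up to 0.0673 CPM (3 counts over the group). The 7 vehicle libraries held 216 Areg reads, from 0.718 through a median of 1.91 to 3.67 CPM. Set against that limit, the Areg level in vehicle kidney was 30.4-fold higher. The 95% counting interval of the ratio to healthy kidney begins at 24.5 and leaves out the spread between libraries. It remained a scarce transcript, below Hbegf in every vehicle library, also per kilobase of transcript.

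Epiregulin (Ereg) was scarcer still, with 2 reads over the healthy libraries and 83 over the vehicle libraries. Its levels were 0, 0.0888, 0.0843 and 0 CPM in healthy and from 0 through a median of 0.982 to 1.16 CPM in vehicle libraries. The ratio of the summed levels was 17.5, with a 95% interval of 4.70 to 147 that covers counting error only. The groups overlapped, since vehicle replicate 6 had no Ereg read. An antisense gene that overlaps Ereg exons, Gm19610, had 10 reads in all, beside 144 for Ereg.

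Transforming growth factor alpha (Tgfa) changed least among the ligands called higher. It stood at 12.1, 10.6, 10.0 and 9.04 CPM in healthy libraries and from 11.1 through a median of 12.8 to 16.3 CPM in vehicle libraries. The groups overlapped, and the log2 change was 0.34 (SE 0.123, edgeR adjusted p = 0.0207). The call was lost without vehicle replicate 6 (log2 0.23, adjusted p = 0.0776 in edgeR), without healthy replicate 3 (0.0552) or 4 (0.0817), with DESeq2 (0.0650) and with edgeR on relative log expression (RLE) scaling (0.0621).

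Betacellulin (Btc), the neighbour of Areg and Ereg on chromosome 5, moved the other way. It stood at 12.1, 9.94, 8.09 and 9.72 CPM in healthy libraries and from 2.81 through a median of 6.60 to 8.09 CPM in vehicle libraries. The highest vehicle library lay 0.00543 CPM below the lowest healthy one, so on TMM-scaled levels the groups touched without overlap. The log2 change was -0.62 (SE 0.223, edgeR adjusted p = 0.0195). It missed the threshold without healthy replicate 1 (log2 -0.51, edgeR adjusted p = 0.0785) and with voom (adjusted p = 0.0517).

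The groups of vehicle and healthy libraries did not overlap for 5 members (Egf, Hbegf, Areg, Btc and Erbb3), against 44.2% of all tested genes. This count is near that share and says little of the family. Areg entered the model only through obstructed libraries, so its lack of overlap is no support.

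Levels of different genes were compared after division by the length of their merged exons, as CPM per kilobase. On this scale the 6 ligands summed to 221 ± 13.9 (SD, n = 4) in healthy, 24.9 ± 9.08 (n = 7) in vehicle and 29.6 ± 11.9 (n = 8) in zalfermin kidney. Without Egf the sums were 7.89 ± 0.878, 14.9 ± 1.82 and 13.9 ± 2.19. The summed ligand transcript thus followed Egf, while the sum of the other 5 ligands was higher after obstruction.

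The make-up of the pool of these 6 ligands, which leaves out Epgn and the neuregulins, differed accordingly. Egf took 96.4% ± 0.533 of the summed level in healthy, 34.98% ± 18.3 in vehicle and 47.5% ± 19.6 in zalfermin libraries. Hbegf took 1.85% ± 0.307, 41.2% ± 11.4 and 27.7% ± 10.9, and Areg 0%, 7.76% ± 5.66 and 10.97% ± 5.48. The shares of Tgfa were 0.731%, 8.81% and 8.37%, those of Btc 1.0%, 6.36% and 4.97%, and those of Ereg 0.00495%, 0.891% and 0.485%. Shares within 1 library are bound to each other and are given as a description. The Egf share ranged from 15.6% to 60.5% over vehicle libraries and from 19.4% to 74.1% over zalfermin libraries. With the longest coding transcript as the length it averaged 97.3%, 40.8% and 55.0%, and with no division by length 98.3%, 54.0% and 67.5% in healthy, vehicle and zalfermin libraries.

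**Figure D2:**
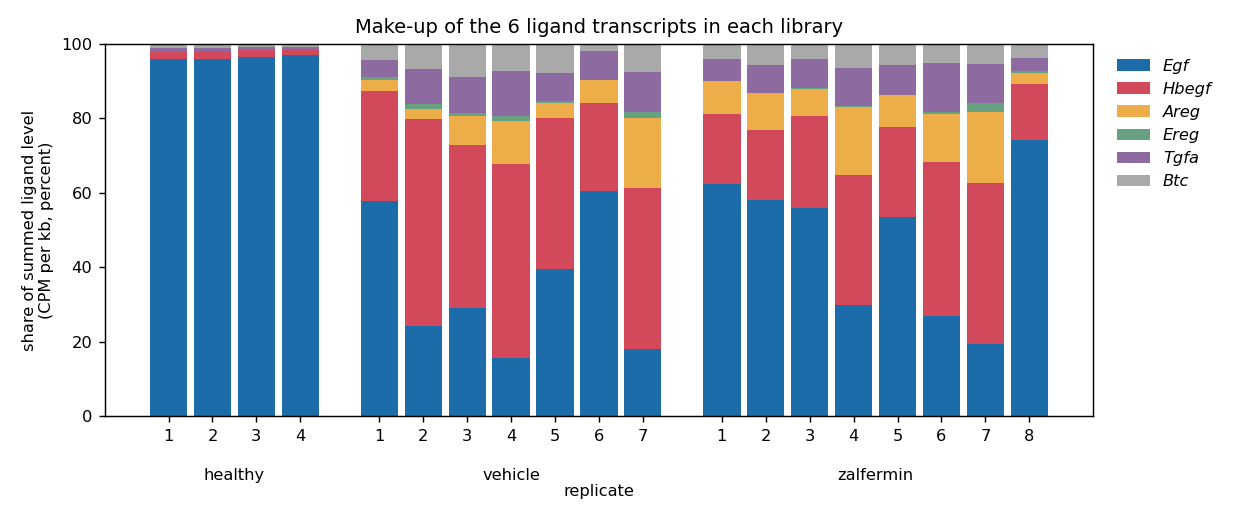
Share of each of the 6 ligands in their summed level in CPM per kilobase (vertical axis, percent) for every library, 1 bar per replicate, grouped as healthy, vehicle and zalfermin. Egf fills at least 95.9% of each healthy bar and 15.6% to 74.1% of the obstructed bars, where Hbegf and Areg take most of the rest.

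In healthy kidney the order of the 10 genes by CPM per kilobase was Egf (213), Erbb3 (24.6), Erbb2 (19.6), Egfr (7.72), Hbegf (4.07), Erbb4 (2.91), Btc (2.20), Tgfa (1.61), Ereg (0.0105) and Areg (0). The ranges over libraries overlapped between Hbegf and Erbb4, Erbb4 and Btc, Btc and Tgfa, and Ereg and Areg. In vehicle kidney Erbb2 (18.2) and Erbb3 (15.9) led, followed by Egf (10.0), Hbegf (9.60), Egfr (8.60), Erbb4 (2.92), Tgfa (2.03), Areg (1.68), Btc (1.44) and Ereg (0.190). There the neighbours from Erbb2 to Egfr and from Erbb4 to Btc overlapped. In zalfermin kidney the order was Erbb2 (20.1), Erbb3 (19.3), Egf (15.7), Egfr (8.78), Hbegf (7.34), Erbb4 (4.01), Areg (2.82), Tgfa (2.20), Btc (1.40) and Ereg (0.127), and all neighbours but Btc and Ereg overlapped. The order after obstruction depends on the length used: with the longest coding transcript, chosen after seeing the data, Egf (23.7), Hbegf (19.5), Erbb2 (18.9) and Erbb3 (15.9) led in vehicle kidney, and Egf (37.3) led in zalfermin kidney.

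Among the receptors, Erbb3 fell with obstruction. It stood at 158, 151, 148 and 134 CPM in healthy libraries and from 74.4 through a median of 102 to 117 CPM in vehicle libraries. The groups did not overlap on TMM-scaled levels, and Erbb3 fell by 0.63 on the log2 scale (SE 0.110, edgeR adjusted p = 3.01e-05).

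The remaining receptors did not pass the test. Egfr stood at 94.4, 80.5, 89.5 and 85.6 CPM in healthy and from 78.4 through a median of 99.998 to 109 CPM in vehicle libraries, with a log2 difference of 0.16 (95% interval -0.02 to 0.33, edgeR adjusted p = 0.140). Erbb4 stood at 45.5, 32.9, 36.3 and 29.2 CPM in healthy and from 12.4 through a median of 37.7 to 48.0 CPM in vehicle libraries, with a log2 difference of 0.00 (-0.44 to 0.44, edgeR adjusted p = 0.992). For Egfr 5 of 7 vehicle libraries lay above the highest healthy one, and replicate 6 at 78.4 CPM lay below the lowest. For Erbb4 the vehicle range took in the healthy one.

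Erbb2 stood at 103, 105, 112 and 87.0 CPM in healthy and from 88.0 through a median of 89.7 to 123 CPM in vehicle libraries. The log2 difference was -0.11 (-0.30 to 0.08, edgeR adjusted p = 0.341). The library at 123 CPM was vehicle replicate 6, which was also the lowest for Erbb4. Without it Erbb2 was called lower (log2 -0.23, edgeR adjusted p = 0.00888), and it was also called lower by voom with quality weights (adjusted p = 0.0123), which called 71.2% of all genes. That tool also called Egfr higher (adjusted p = 0.0146).

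**Figure D3:**
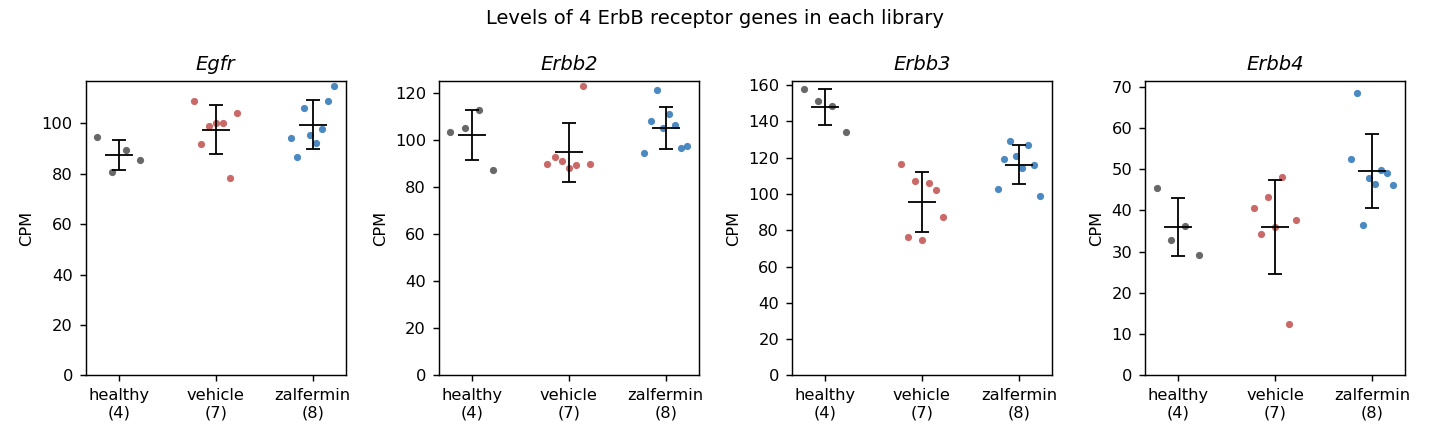
Level of each ErbB receptor gene in CPM (vertical axes, linear and starting at 0) in 4 healthy, 7 vehicle and 8 zalfermin libraries; points are libraries, and the bars give the mean and SD. Erbb3 is higher in every healthy library (134 CPM or more) than in any obstructed one, and single vehicle points at 123 CPM for Erbb2 and 12.4 CPM for Erbb4 are replicate 6.

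The loss of Egf was set beside other genes of the tubule segments that make it. Umod, which encodes uromodulin of the thick ascending limb, averaged 6077 ± 394 CPM in healthy (SD, n = 4) and 3461 ± 660 in vehicle kidney (n = 7). Slc12a1, the sodium-potassium-chloride cotransporter of the same segment, averaged 2459 ± 663 and 386 ± 149, and Slc12a3, the sodium-chloride cotransporter of the distal convoluted tubule, 959 ± 167 and 288 ± 70.5. Of all tested genes 28.6% were called lower. Over the whole marker lists, 6 of 8 thick ascending limb and 7 of 7 distal convoluted tubule genes fell. Their summed levels were 8606 to 10389 and 1703 to 2198 CPM over healthy, 3365 to 5594 and 353 to 631 over vehicle, and 3918 to 5196 and 494 to 816 over zalfermin libraries, and no marker was without reads. How much of the loss of Egf goes with these segments was not tested.

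Egf fell further than each of these 3 segment genes, though not than every marker of the distal convoluted tubule. Pvalb, which encodes the calcium-binding protein parvalbumin, went from 860 reads over the healthy libraries to 2 over the vehicle libraries. Calb1, which encodes calbindin, fell by 3.83 on the log2 scale, from 614 ± 111 to 43.2 ± 13.7 CPM (edgeR adjusted p = 1.14e-09). The log2 ratio of Egf to Umod was -1.34 ± 0.176 in healthy and -5.36 ± 1.03 in vehicle libraries (SD), a difference of -4.02. The difference was -2.14 for the ratio to Slc12a1 and -3.10 for the ratio to Slc12a3. In none of the ratios did vehicle and healthy libraries overlap. A two-sided exact permutation test gave p = 0.00303 for each, the smallest that 330 arrangements can give (adjusted p = 0.00545 over 9 such tests). These partner genes were chosen with the fall of Egf known.

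Obstructed libraries with more Egf also held more Slc12a1. Over the 7 vehicle libraries the log2 levels had a Pearson r of 0.92 (exact permutation p = 0.00238, adjusted 0.0238) and a Spearman rho of 0.89 (exact permutation p = 0.0123, adjusted 0.109). Without replicates 1 and 6, the farthest from the median, r was 0.69. Over the 8 zalfermin libraries r was 0.80 (exact permutation p = 0.0252, adjusted 0.121) and rho 0.81 (0.0218, adjusted 0.109), and r was 0.97 without replicates 3 and 6. These are 2 of 10 relations examined. For Umod, of the same segment as Slc12a1, r was 0.77 over vehicle and -0.20 over zalfermin libraries. For Umod, Slc12a3, the injury marker Havcr1 and Hbegf the smallest exact permutation p of Pearson's r was 0.0458 (adjusted 0.121).

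**Figure D4:**
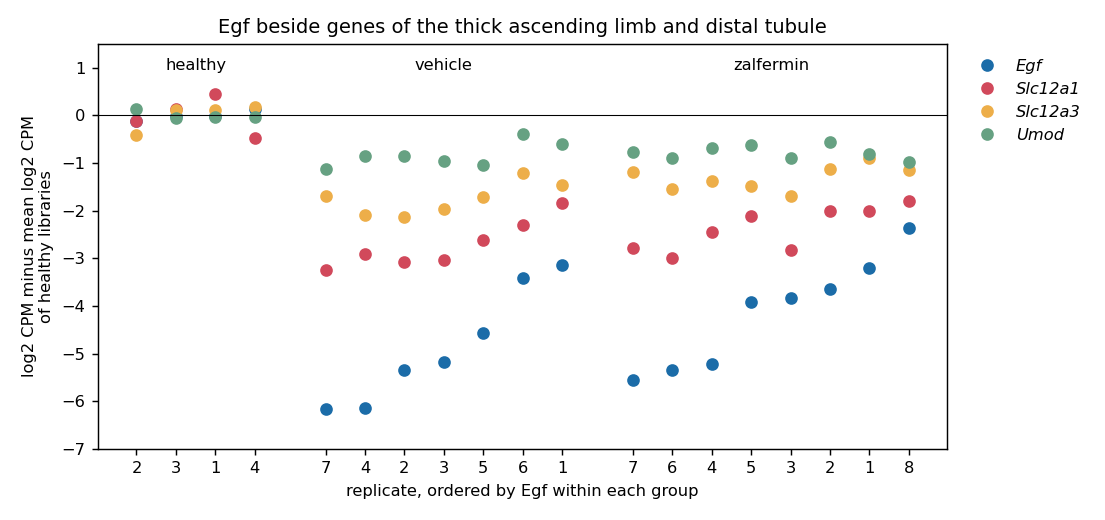
Log2 CPM of Egf, Slc12a1, Slc12a3 and Umod minus the mean of the healthy libraries (vertical axis) in each of 19 libraries, ordered by Egf within each group. After obstruction Egf lies below the other 3 genes in every library, from -2.37 to -6.17, and Umod lies nearest to the healthy level.

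Markers of other cell types also differed between the groups in which the injury ligands rose, where 36.2% of all tested genes were called higher. Of the injured tubule markers 8 of 8 rose, with summed levels of 84.5 to 93.4 CPM in healthy and 1906 to 2998 in vehicle libraries, and Sprr2f had no healthy read. Of the macrophage markers 7 of 7 rose (145 to 166 and 898 to 1189 CPM), as did 7 of 7 fibroblast and pericyte markers (172 to 256 and 2047 to 3752 CPM). Of the urothelial markers 4 of 8 rose, which is not far from the share over all genes. Their sums overlapped between the groups (17.4 to 46.0 and 41.8 to 84.4 CPM). Of the markers of type 2 innate lymphoid cells 2 of 3 tested rose: Il1rl1 from 0.873 ± 0.515 to 7.44 ± 1.70 CPM and Gata3 from 16.4 ± 3.34 to 26.8 ± 2.05 CPM. Their sum, 96.3 to 116 and 80.4 to 121 CPM, overlapped between the groups and was mostly Rora (85.6 and 75.9 CPM on average). Il5 had 2 healthy and 2 vehicle reads and Il13 had 0 and 5, too few to be tested in the model. These values do not settle whether such cells became more frequent. The part of these cells in the rise of Hbegf, Areg and Ereg was not tested.

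Of the remaining ligands of the family, Nrg1 was abundant and the others were scarce. In vehicle kidney its mean in CPM lay above that of Hbegf (46.4), without division by length. Nrg1, which encodes neuregulin 1, rose from 19.5 ± 2.40 CPM in healthy (SD, n = 4) to 51.7 ± 9.09 in vehicle kidney (n = 7), by 1.40 on the log2 scale (edgeR adjusted p = 5.27e-08). Nrg4 averaged 1.61 ± 0.768 and 0.936 ± 0.109 CPM, with a log2 change of -0.78 (edgeR adjusted p = 0.0477). That call was lost under 10 of 19 alternative settings, including without healthy replicate 2 or 3 and without any 1 vehicle replicate except replicate 6 (adjusted p up to 0.250). Epgn, the remaining gene of the chromosome 5 row, had 1 healthy and 10 vehicle reads, Nrg2 had 5 and 36, and both were too scarce to be tested in the model. Neither passed a two-sided exact permutation test of its mean level (p = 0.394 and 0.188). Nrg3 had 0 reads.

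Genes that release the ligands mostly rose. Of 11 proteases and regulators of shedding, 8 rose and 2 fell with obstruction (median log2 change 0.79). Over all tested genes 36.2% were called higher and 28.6% lower. Adam12 rose from 2.13 ± 0.654 to 32.9 ± 3.91 CPM and Adam8 from 0.811 ± 0.302 to 18.3 ± 3.59 CPM. Adam17, which encodes the main sheddase of Areg and Tgfa, rose by 0.60 on the log2 scale (edgeR adjusted p = 2.01e-05). Timp3, the inhibitor of that protease, fell by 1.07 (edgeR adjusted p = 6.03e-08), from 2530 ± 373 to 1209 ± 170 CPM.

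Downstream of the receptors, calls went in both directions and were about as frequent as the 64.8% over all genes. Of 21 adaptor and cascade genes 9 rose and 5 fell, with a median log2 change of 0.03 against 0.09 for all genes. Among those that rose were Stat3 (1.73) and the adaptor Shc1 (0.89). Of 14 negative regulators 5 rose and 4 fell (median -0.03), among them Sh3kbp1 (1.60), a partner of the ubiquitin ligase Cbl, and the phosphatase Ptprk (-0.66).

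Early targets and feedback genes of ERK signalling rose in 13 of 16 cases and fell in none (median 0.98). For this list and the next, the shares over all tested genes were 36.2% called higher and 28.6% called lower. Myc rose by 2.21 on the log2 scale, and Fosl1, an AP-1 subunit, went from 1 read over the healthy libraries to 653 over the vehicle libraries, a ratio of 276 with a 95% counting interval of 49.3 to 10908. The 3 that did not pass were Dusp4, Dusp6 and Etv5, with log2 differences of 0.15, 0.23 and -0.10. Of 10 genes of the YAP and AP-1 group 9 rose and none fell (median 2.03), led by Atf3 (4.84) and Fosl2 (2.96). Many of these genes also answer to signals other than ErbB.

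Genes of distal transport tied to EGF mostly fell. Of 10 such genes 9 fell and 1 rose (median -0.83), where 28.6% of all tested genes were called lower and 36.2% higher. Pcbd1, a cofactor of the transcription factor HNF1, fell by 1.89 on the log2 scale, from 288 ± 41.6 to 77.7 ± 14.4 CPM. The potassium channel gene Kcnj10 fell by 1.41. The magnesium channel gene Trpm6 fell by 0.49 (edgeR adjusted p = 0.00192), from 24.8 ± 2.38 to 17.7 ± 2.91 CPM, and the magnesium transporter gene Slc41a3 rose by 0.82. Of these, Slc12a3 and Trpm6 are also in the distal convoluted tubule list above.

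**Figure D5:**
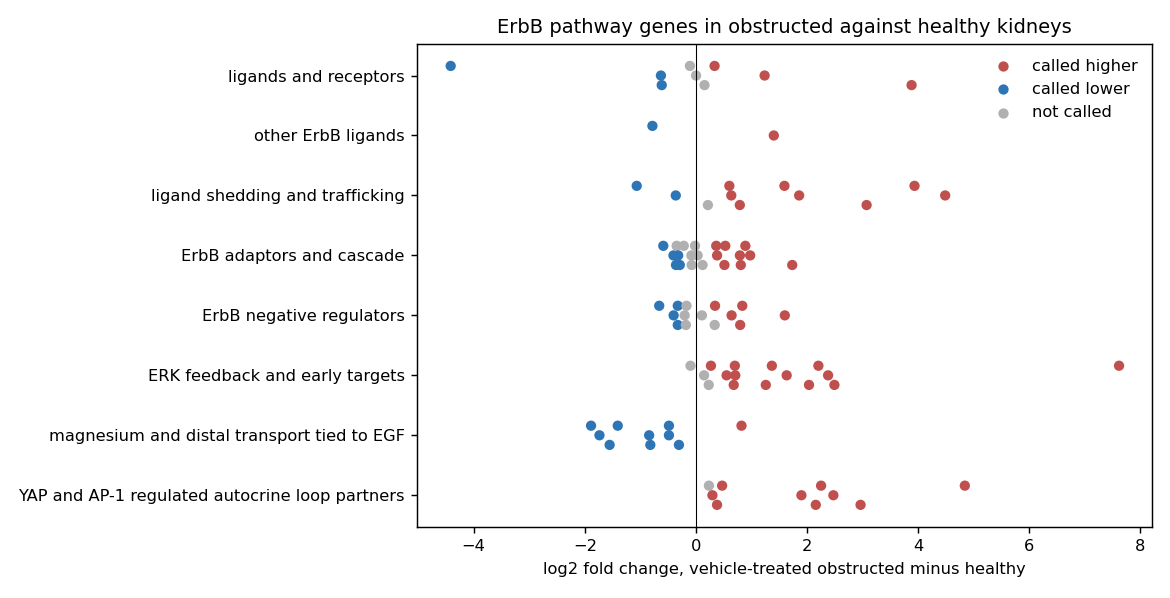
Log2 fold change of the 10 members (without Areg, which had no healthy read) and of 7 lists of related genes in vehicle against healthy libraries (horizontal axis); each point is a gene, coloured by whether it was called higher, called lower or not called. Egf lies farthest to the left at -4.41, and the point farthest to the right is Fosl1, whose fitted value rests on 1 healthy read.

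In zalfermin against vehicle kidneys edgeR called 0 of the 10 members, beside 1.81% of all tested genes (0.867% or 139 higher and 0.942% or 151 lower, and with upper-quartile scaling 105 higher and 191 lower). Members at an unadjusted p under 0.05 numbered 4 (Hbegf, Areg, Erbb3 and Erbb4), against 15.5% of all genes. DESeq2 also called 0, with 4 at an unadjusted p under 0.05 (15.9% of all genes), and it called 3.76% of all genes. Voom with quality weights called 3, Areg and Erbb2 higher and Hbegf lower, where it called 7.16% of all genes.

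Egf ran from 50.9 through a median of 164 to 463 CPM in zalfermin libraries, against 33.2, 65.9 and 273 in vehicle libraries. The groups overlapped over most of their range. The log2 difference was 0.65 with a 95% interval of -0.26 to 1.57 (edgeR adjusted p = 0.527), so these libraries cannot tell no difference from a rise of this size. The ratios of Egf to Umod, Slc12a1 and Slc12a3 differed by 0.66, 0.38 and 0.27 on the log2 scale (two-sided exact permutation p = 0.264, 0.369 and 0.607).

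The levels of Hbegf and Areg lay on opposite sides of vehicle. Hbegf ran from 26.8 through a median of 33.1 to 48.7 CPM under zalfermin, and 1 of 8 libraries lay above the vehicle median. Its log2 difference was -0.39 (-0.64 to -0.14, edgeR adjusted p = 0.131, voom adjusted p = 0.0450). Areg ran from 2.04 through a median of 3.29 to 5.41 CPM, and 8 of 8 libraries lay above the vehicle median. Its log2 difference was 0.74 (0.18 to 1.31, edgeR adjusted p = 0.219, voom adjusted p = 0.0451).

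The other ligands overlapped widely between these groups. Ereg had 59 reads under zalfermin, from 0 through a median of 0.235 to 2.12 CPM, and the log2 difference was -0.58 (-1.76 to 0.59, edgeR adjusted p = 0.678). Tgfa ran from 12.7 through 13.97 to 16.6 CPM, a log2 difference of 0.12 (-0.08 to 0.31, edgeR adjusted p = 0.600). Btc ran from 4.59 through 6.08 to 9.41 CPM, a log2 difference of -0.04 (-0.41 to 0.33, edgeR adjusted p = 0.942).

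Of the receptors, Egfr differed least between the obstructed groups. Egfr ran from 86.6 through a median of 96.5 to 115 CPM under zalfermin, with 3 of 8 libraries above the vehicle median and a log2 difference of 0.03 (-0.12 to 0.18, edgeR adjusted p = 0.883). Erbb2 ran from 94.4 through 106 to 121 CPM, with 8 of 8 libraries above the vehicle median, and differed by 0.15 (-0.01 to 0.30, edgeR adjusted p = 0.394, voom adjusted p = 0.0230). Erbb3 ran from 98.7 through 118 to 129 CPM and Erbb4 from 36.6 through 48.4 to 68.5 CPM, each with 7 of 8 libraries above the vehicle median. Their log2 differences were 0.28 (0.10 to 0.46) and 0.46 (0.10 to 0.82), with edgeR adjusted p of 0.135 and 0.226. Without vehicle replicate 6 the value for Erbb4 was 0.30 (edgeR adjusted p = 0.163). None of these differences passed the test across all genes in edgeR, and the direction for Egfr turned in 4 of 23 alternative settings.

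Among related genes edgeR called 3 between zalfermin and vehicle, beside 1.81% of all tested genes. Adam12 fell by 0.77 on the log2 scale (edgeR adjusted p = 0.00689), from 32.9 ± 3.91 to 19.3 ± 4.98 CPM, and its groups did not overlap, as in 0.605% of tested genes. It kept this call under each of 23 alternative settings. Kcnj10 rose by 0.44 (edgeR adjusted p = 0.0275) and Atf3 fell by 0.47 (edgeR adjusted p = 0.0474). These calls were lost under 8 and 11 of the 23 settings, most of them fits without 1 library, with adjusted p up to 0.0736 and 0.109. Adam8 was not called in the main fit but was called lower in 10 of 23 settings, among them DESeq2 (adjusted p = 0.0127) and voom (adjusted p = 0.00566). Slc12a3 was likewise called higher in 2 of 23, by voom (adjusted p = 0.0123) and without vehicle replicate 6 (edgeR adjusted p = 0.0276). Of the fibroblast and pericyte markers 2 of 7 fell, beside 0.942% of all tested genes called lower. The 7 markers summed to 2047 to 3752 CPM in vehicle and 1228 to 2006 in zalfermin libraries. Their part in these differences was not tested.

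The lists of adaptors, negative regulators and ERK targets had 0 calls between these groups with edgeR, DESeq2 and voom. At an unadjusted p under 0.05 edgeR had 3 of 21, 3 of 14 and 1 of 16, DESeq2 4, 2 and 1, and voom 4, 5 and 2. Nrg1 averaged 49.1 ± 9.15 CPM under zalfermin, with a log2 difference of -0.07 (edgeR adjusted p = 0.805).

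Zalfermin libraries were also compared with the healthy ones, which both comparisons share. EdgeR called 7 of 10 members, the same 7 as in vehicle against healthy, 4 higher and 3 lower. Of all genes 64.3% were called (37.3% higher and 27% lower), so the count is near the background. The higher calls of Areg and Ereg are again no support, since both entered the model only through obstructed libraries. The log2 changes in vehicle and in zalfermin against healthy were -4.41 and -3.76 for Egf, 1.24 and 0.85 for Hbegf, 0.34 and 0.45 for Tgfa, -0.62 and -0.65 for Btc, and -0.63 and -0.35 for Erbb3. Areg, with 389 reads under zalfermin, stood 50.7-fold above the limit for healthy kidney, and the 95% counting interval of its ratio begins at 41.1. Ereg had a ratio of 11.5 with a 95% counting interval of 3.06 to 97.5. Tgfa did not overlap with healthy libraries under zalfermin (edgeR adjusted p = 0.00241), as held for 51.2% of all genes. Erbb4 differed by 0.46 (edgeR adjusted p = 0.0726), Egfr by 0.18 (0.0749) and Erbb2 by 0.04 (0.724). Erbb4 was called higher in 4 of 20 alternative settings (voom, the fit of only these groups, and without healthy replicate 1 or zalfermin replicate 3; adjusted p down to 0.00730) and Egfr in 3 (upper-quartile scaling, voom and without zalfermin replicate 2; down to 0.0313). The call of Ereg was lost without healthy replicate 1 or 4, without zalfermin replicate 7 and with voom (adjusted p up to 0.0854), and that of Btc without healthy replicate 1 (adjusted p = 0.0546).

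The genes whose pattern was most like that of each called member were found over the 15 obstructed libraries, by the mean absolute difference in log2 level relative to healthy kidney among up to 11609 candidate genes. The nearest to Egf were Nccrp1 (0.61), Cyp2d12 (0.64) and Gpx6 (0.72). The nearest to Hbegf were Fbln7 (0.18), Plk2 (0.21) and Pard6g (0.21), and to Areg Col17a1 (0.39) and Smpdl3b (0.50). The nearest to Ereg were Ccn1 (0.69), Pi15 (0.71) and Dcn (0.71). Areg and Ereg had 0 and 2 healthy reads, so their healthy level here rests largely on the prior count of 2 added before the logarithm. On this scale they averaged 4.20 and 1.70 above healthy, less than their count ratios give. Their neighbours match these reduced values and are not evidence of a shared pattern. Cep170b, Arf6 and Foxi1 were nearest to Tgfa (0.09 to 0.10), Ube2v2, Agtr1a and Rmdn1 to Btc (0.16 to 0.20), and Nudt13, Hoxd3os1 and Pitrm1 to Erbb3 (0.13 to 0.15).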

How the data were processed

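RNA of 19 mouse kidneys was sequenced, per the labels, from NEBNext Ultra II Directional libraries. STAR 2.7.0f and the build GRCm38 are named in the submitters' processing notes; the counting program and its strand setting are not stated in the sources used here. The authors deposited whole-number read counts for each gene, not normalized. All 55536 identifiers were found in GENCODE M21, which gave coordinates and exon lengths.

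Genes were kept with filterByExpr (minimum count 10, minimum total 15), which left 39510 untested. A quasi-likelihood model in edgeR 4.0.16 (R 4.3.3) with TMM factors took all 19 libraries. Its 3 two-sided comparisons used Benjamini-Hochberg adjustment over 16026 genes. SE is the log2 change divided by the square root of F. Alternatives were DESeq2 1.42.0, RLE or upper-quartile scaling, limma 3.58.1 voom with quality weights, other filters, fits of 2 groups and each library left out. Simulated data were used to check the fit. No 2 libraries of a group were alike within sampling noise (lowest chi-square per degree of freedom 5.89).

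The members and gene lists were chosen with earlier results of these data known. Named genes were the 10 members, in each list of related genes the 2 with the smallest p, the strongest called gene against the majority and up to 3 called under zalfermin, all other ErbB ligands, and the 3 genes nearest in pattern to each called member (mean of at least 5 CPM, prior count of 2). A few genes taken by this rule are not reported here. Of the marker lists only genes beside a result are given; Adam17, Trpm6, Calb1, Il1rl1, Gata3, Rora, Dusp4, Dusp6 and Etv5 were named after their values were seen. Low genes had exact permutation tests.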

Additional observations from a re-analysis of the deposited data

Results flagged for a closer look

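In 44 groups of library values examined for 1 library far from the rest, 7 had one by Dixon's test at the 95% level. For normally distributed values chance flags about 1 in 20 groups. That rate does not hold for genes with few reads, where a library that alone has reads is always flagged. Vehicle replicate 6 accounted for 3 of them. It held 123 CPM of Erbb2, where the other vehicle libraries held 88.0 to 92.6, and 12.4 CPM of Erbb4, where the others held 34.2 to 48.0. It also held 1.07 CPM of Nrg2, where the others held 0.129 to 0.510. This library had 1.10% mitochondrial counts and 19788 detected genes, against 21374 to 22216 genes in the other vehicle libraries; the part of this in its values was not tested. Ereg stood at 2.12 CPM in zalfermin replicate 7 and at no more than 0.842 CPM in the other zalfermin libraries. The rest concern genes at the limit of detection: Epgn with 0.0843 CPM in healthy replicate 3 and 0.128 CPM in zalfermin replicate 4, each the only library of its group with Epgn reads, and Nrg2 with 0.178 CPM in healthy replicate 1.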

How the results depend on the processing

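Over all alternatives no called change of a named gene reversed. A member's call differed from the one reported in 10 of 190 cases in vehicle against healthy, in 3 of 230 in zalfermin against vehicle and in 12 of 199 in zalfermin against healthy; Egf, Hbegf, Areg, Ereg, Erbb3 and Nrg1 kept theirs in all 19 settings of the first. Leaving out 1 library gave 6 to 7, 0 and 6 to 8 called members in the 3 comparisons, and 9789 to 11199, 153 to 517 and 9574 to 10165 called genes. For zalfermin against vehicle, 290 genes were called, but 602 with DESeq2 and 1148 with voom, where 3 members were called; the count was 517 without vehicle replicate 6, 179 and 157 without vehicle replicates 2 and 7, and 162, 155 and 153 without zalfermin replicates 4, 5 and 2. The share of Egf among ligand transcripts was 98.3%, 54.0% and 67.5% in the 3 groups with no division by length, and 97.3%, 40.8% and 55.0% with the length of the longest coding transcript, an alternative chosen after seeing the data; leaving out 1 library gave 96.2% to 96.6%, 30.7% to 38.2% and 43.7% to 51.5%. No paired analysis was possible because the labels give no replicate number; numbers here are accession order. Depth limits Areg, Ereg, Epgn and Nrg2, whose levels rest on few reads.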
